A study of Mus musculus with 2 samples.

Results

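The Fox and Sox genes encode 2 families of transcription factors, the forkhead proteins and the SRY-related HMG box proteins. DNase I signal over their coding spans was taken from a table of mouse M1 cells. Every gene was included whose symbol was Fox with a letter and a number, or Sox with a number alone, and each gene was represented by its listed transcript with the most windows. This gave 61 genes of 22605, of which 43 were Fox genes and 18 were Sox genes. By textbook roles, 9 of them are used in blood cells, 8 are found in many tissues, 41 are best known from the development of other organs, and 3 were left unplaced. These classes are called blood, broad, developmental and unplaced below.

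M1 is an established mouse myeloid leukemia cell line, labeled as a myeloid progenitor, that differentiates toward macrophages in interleukin-6 (IL-6). One library was made from untreated M1 cells and the other from M1 cells kept with IL-6, for which the sample labels give 4 to 5 days. Both libraries came from the same unmodified line within the same stated range of passages, and the bone marrow was given as the source. In DHS-seq, nuclei are lightly digested with DNase I and the short fragments cut from open chromatin are sequenced. There was 1 library per condition, so no difference below has a replicate check and no p-value is given. Intervals are 95% intervals for counting error only, exact Poisson for a level and Clopper-Pearson for a ratio. They compare these 2 libraries, not the conditions.

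Forkhead and Sox proteins bind DNA as sequence-specific factors, and close relatives often share a target motif while acting in different tissues. In blood, the FoxO proteins restrain proliferation when signaling through phosphoinositide 3-kinase and Akt is low, Foxp1 and Sox4 act in early B cells, Foxp3 directs regulatory T cells, and Sox6 acts in red cell precursors. Most other members set the identity of nerve, gut, lung, kidney, gonad or vessel cells, and many of their genes lie in long CpG-rich regions. An open start site or enhancer is usually seen as a short peak of DNase I signal, whereas a closed gene gives a low, even signal.

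The table held, for each transcript, the mean signal over the 700-bp windows touched by its coding span (start to stop codon). The level of a gene is this mean, in reads per window, with reads of the IL-6 library counted at the authors' scaled value of 1.03816. The median level over all genes was 7.75 in M1 cells and 8.14 in M1+IL-6 cells. The spans of all genes held 9326429 and 8703774 reads. Spans of members were short, with a median of 5 windows against 16 for all genes, and 29 of the 41 developmental members had at most 5 windows. The coding part was a single exon in 17 developmental members, and in 1 blood and 1 broad member (Sox4 and Sox12). An annotated start site of the gene itself lay in the windows of 28 of the 61 members. Only transcripts with an annotated 5′ untranslated region gave a start site. No such start lay in the windows of the other 33, so their promoters may be missing or only partly covered. Some starts lay close by, such as that of Foxd1 at 0.001 kb, and the RefSeq promoter of Sox14 lay inside its windows. In M1 cells, 7 of the 9 myeloid progenitor markers found had levels above the median of all genes, against 5 of 9 macrophage markers and 5 of 10 markers of other lineages.

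The promoter ends of 4 members are shown because they lie in or next to windows whose values are described below. They are 300-base RefSeq sequences of GRCm38.p6, running from 250 bases before the start to 50 after it, and each was matched once to NCBIM37, the build of the table. All 4 genes lie on the minus strand, and the CpG dinucleotides are in capitals. The Sox4 sequence is at chr13:29045519-29045818, just outside the 3 windows of the gene. The Foxp1 sequence is at chr6:98978243-98978542, the Sox12 sequence at chr2:152223733-152224032 and the Foxd4 sequence at chr19:24975457-24975756, all inside the windows of their genes.
Sox4: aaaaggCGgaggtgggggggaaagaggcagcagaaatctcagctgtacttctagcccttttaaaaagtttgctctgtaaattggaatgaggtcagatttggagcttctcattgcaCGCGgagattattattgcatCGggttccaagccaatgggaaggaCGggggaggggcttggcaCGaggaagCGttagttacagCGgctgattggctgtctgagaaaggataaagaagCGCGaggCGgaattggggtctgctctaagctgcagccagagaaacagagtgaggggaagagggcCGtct
Foxp1: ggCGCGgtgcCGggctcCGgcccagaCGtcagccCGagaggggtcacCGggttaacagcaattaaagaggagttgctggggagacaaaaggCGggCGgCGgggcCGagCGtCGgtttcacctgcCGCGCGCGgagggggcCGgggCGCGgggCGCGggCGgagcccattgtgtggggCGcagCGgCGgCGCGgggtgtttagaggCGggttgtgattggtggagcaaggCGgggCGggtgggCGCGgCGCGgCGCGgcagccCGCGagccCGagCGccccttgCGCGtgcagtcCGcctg
Sox12: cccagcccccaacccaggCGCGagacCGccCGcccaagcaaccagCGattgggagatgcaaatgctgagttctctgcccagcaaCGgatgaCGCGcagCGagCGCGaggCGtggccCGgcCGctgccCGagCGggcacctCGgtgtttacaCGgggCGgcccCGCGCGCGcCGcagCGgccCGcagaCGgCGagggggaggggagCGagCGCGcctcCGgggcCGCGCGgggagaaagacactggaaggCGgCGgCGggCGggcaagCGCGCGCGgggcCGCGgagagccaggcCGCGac
Foxd4: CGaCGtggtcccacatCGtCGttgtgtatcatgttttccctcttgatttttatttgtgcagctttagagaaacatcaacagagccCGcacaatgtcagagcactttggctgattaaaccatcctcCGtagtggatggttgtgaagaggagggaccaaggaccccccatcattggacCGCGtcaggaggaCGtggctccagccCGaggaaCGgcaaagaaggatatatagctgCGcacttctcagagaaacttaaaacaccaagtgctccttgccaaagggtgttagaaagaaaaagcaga

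These sequences held 12, 44, 47 and 12 CpG dinucleotides in the order given. The table of RefSeq promoters held 50 sequences for 40 members, with a median of 18.5 CpG against 7 over 32851 promoters. At least 10 CpG were present in 72% of the member promoters and in 43.5% of all promoters. The forkhead motif GTAAACA, searched on both strands, was present in 2 of the 50 member promoters (4%), those of Foxa1 and Sox12, and in 3.65% of all promoters. The Sox motif ACAAAG, searched in the same way, was present in 30% of the member promoters and in 18.7% of all promoters, and 5 of these 15 member sequences were alternative promoters of Sox6. Both other Sox motifs searched were less frequent in members, ACAATG with 10% against 12.6% and ACAATA with 4% against 9.13%. The coding windows of members were also rich in these bases, with a median of 30 CpG per kb against 12 for all genes. Over all genes the M1 level rose with the GC content of the windows (Spearman's rho 0.62 across 22592 genes), but among the 61 members this rho was 0.09. Genes are not independent replicates, and these values are descriptions.

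The Fox and Sox genes together had a median level close to that of all genes. It was 8.14 reads per window in M1 cells, and 31 of 61 were above the median of all genes, where 49.9% of all genes lie. Blood members had a median of 7.42 (3.04 to 38.0), broad members 10.1 (3.67 to 21.3) and developmental members 8.14 (0.667 to 23.7). The 3 ranges overlapped almost completely. The number above the all-gene median was 4 of 9 in the blood class, 5 of 8 in the broad class and 21 of 41 in the developmental class. The 39 Hox genes, another family of developmental factors, were lower, with a median of 4.67 and 8 of 39 above the all-gene median. In M1+IL-6 cells the medians were 8.80 for blood, 10.6 for broad and 9.60 for developmental members, and 5.54 for Hox genes.

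**Figure D1:**
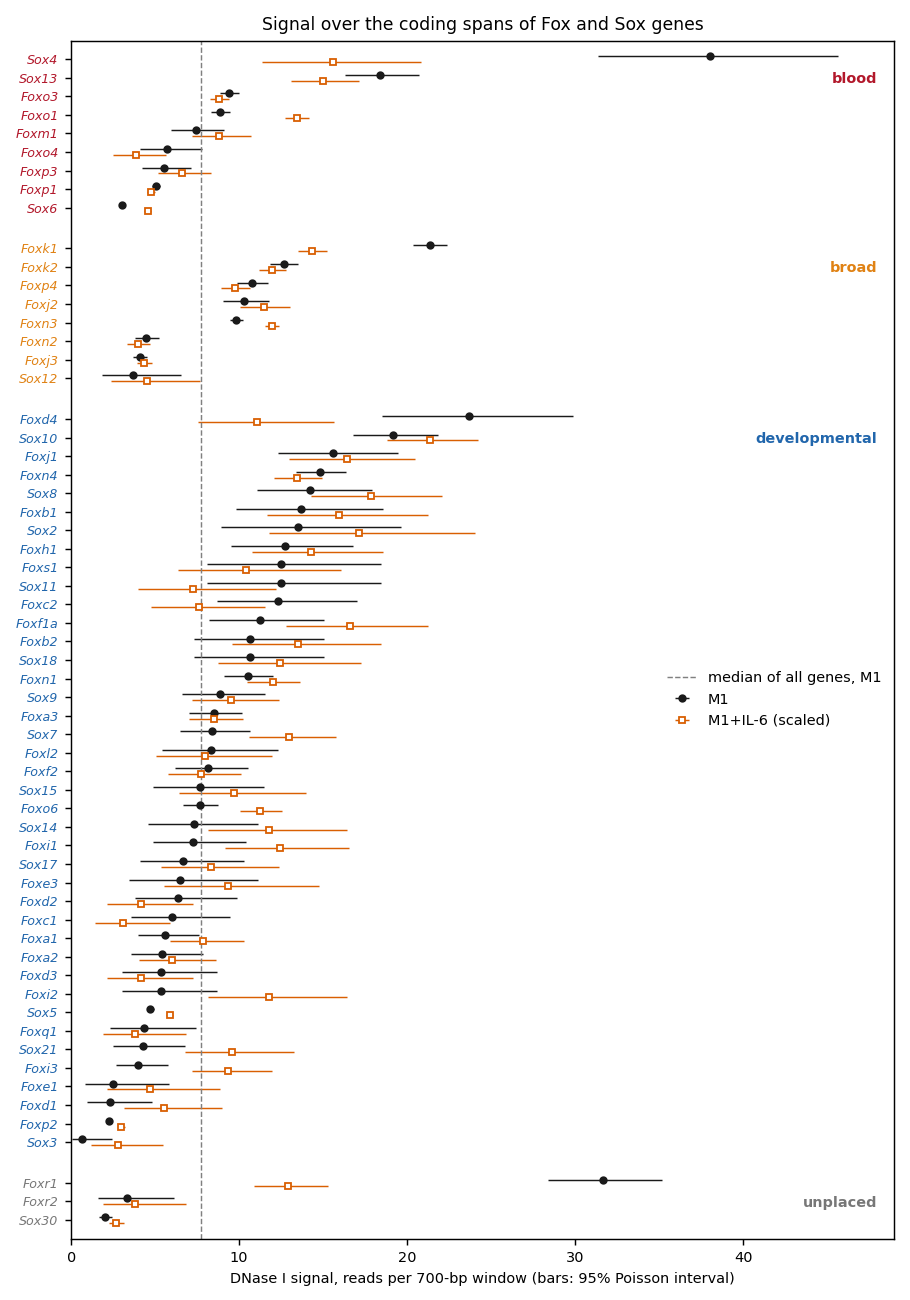
DNase I signal of the members described, in reads per 700-bp window, with 95% Poisson intervals, in M1 cells (filled circles) and M1+IL-6 cells (open squares, scaled). Within each class members are ordered by their M1 level, and the dashed line is the M1 median of all genes, 7.75. Sox4 (38.0) and Foxr1 (31.6) stand highest in M1 cells, and both are at less than 16 in M1+IL-6 cells.

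Sox4, which promotes survival and growth of early lymphoid cells and is often active in leukemia, had the highest level of all members in untreated M1 cells. Its 3 windows held 114 reads in M1 cells, 38.0 per window (31.3 to 45.6), which placed it at the 93.6 percentile of all genes. In M1+IL-6 cells they held 45 reads, a scaled level of 15.6 (11.4 to 20.8). The intervals did not overlap, and the ratio was 0.41 (0.284 to 0.583). Nearly all of the M1 signal lay in the 5′ stretch of 2 windows, which covers most of the single coding exon. This stretch held 108 of the M1 reads and 40 reads of the IL-6 library. Of the 108, 72 were in 1 window, and which of the 2 it was is not known. The last window, at the 3′ end, held 6 and 5 reads. The start site lies 0.482 kb outside these windows, and the start of the nearest other gene, Prl5a1, lies 809 kb away.

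Sox13, a factor of gamma-delta T cells, was the second highest blood member. It had 276 reads over 15 windows in M1 cells, a level of 18.4 (16.3 to 20.7), and 217 reads in M1+IL-6 cells, a level of 15.0 (13.1 to 17.2). The ratio was 0.816 (0.68 to 0.979), so its interval just excluded equality. Sox6, which acts with Sox5 and Sox13 as the SoxD group, had the lowest blood level, 3.04 (2.88 to 3.2) over 464 windows. It rose to 4.55 (4.36 to 4.76), a ratio of 1.5 (1.4 to 1.6). Sox5, best known from cartilage and named after its values were seen, lay between them at 4.72 in M1 cells and 5.87 in M1+IL-6 cells. The 3 SoxD genes thus differed from each other by more than their counting error in M1 cells. Their spans were unlike, which counting error does not cover. Sox13 had 15 windows with a GC content of 54.8%, Sox6 464 with 40.1% and Sox5 538 with 42.1%. An own start site lay in the windows of Sox13 and Sox5, but that nearest to Sox6 was 23 kb outside. The part of these features in the levels was not tested.

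The FoxO genes, whose proteins are held in the cytoplasm by Akt, had middling levels that moved in different directions. Foxo3 had 1070 reads over 114 windows in M1 cells (level 9.39, 8.83 to 9.97) and 966 in M1+IL-6 cells (level 8.80, 8.25 to 9.37). Foxo1 had 993 reads over 112 windows in M1 cells (level 8.87, 8.32 to 9.44) and 1448 in M1+IL-6 cells (level 13.4, 12.7 to 14.1). The M1 levels of these paralogs did not differ beyond their intervals, but in M1+IL-6 cells Foxo1 was clearly the higher of the pair. The ratio was 1.51 (1.40 to 1.64) for Foxo1 and 0.937 (0.858 to 1.02) for Foxo3. Foxo4, the X-linked member of the group, had 40 and 26 reads, with a ratio of 0.675 whose interval (0.395 to 1.13) included 1. Foxo6, a brain member counted as developmental, had 222 and 314 reads and a ratio of 1.47 (1.23 to 1.75), close to that of Foxo1.

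Within Foxo3 the 5′ and 3′ parts of the span changed differently. Foxo3 has listed transcripts that end at different positions, and the reads between their ends can be had by subtraction. The 5′ stretch of 41 windows held 469 reads in M1 cells and 328 in M1+IL-6 cells, a ratio of 0.726 (0.629 to 0.838). The other 73 windows held 601 and 638 reads, a ratio of 1.10 (0.984 to 1.23). These intervals did not overlap. In M1 cells the strongest window could hold 33 to 109 reads in the 5′ stretch and 12 to 50 in the other. These ranges overlapped, so which stretch held the stronger window is not known.

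Foxp1, a factor of early B cells and of monocytes, showed low average signal with a few raised places. Over 334 windows it had 1678 reads in M1 cells (level 5.02, 4.79 to 5.27) and 1522 in M1+IL-6 cells (level 4.73, 4.50 to 4.97). The ratio was 0.942 (0.878 to 1.01). Its listed transcripts split the span into 7 stretches. A single window about 160.3 kb from the 5′ end held 24 reads in M1 cells and 13 in M1+IL-6 cells. The ratio there was 0.562, and its interval (0.263 to 1.15) included 1. The stretch that holds the CpG-rich sequence printed above had a low mean of 4.51, but at least 1 of its 193 windows held 24 reads or more in M1 cells.

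Among the FoxP genes the M1 levels were 10.8 for Foxp4, 5.55 for Foxp3, 5.02 for Foxp1 and 2.25 for Foxp2. Foxp3, the regulatory T cell factor, had 61 reads in M1 cells and 70 in M1+IL-6 cells, with a ratio of 1.19 (0.833 to 1.71). The intervals of Foxp3 (4.24 to 7.12) and Foxp1 overlapped, so the order of these neighbors was not resolved. Foxp2, a factor of brain and lung, was among the 5 lowest of the members outside the blood and broad classes, with 777 and 994 reads over 345 windows. Foxm1, which drives genes of cell division, had 89 and 102 reads over 12 windows, levels of 7.42 (5.96 to 9.13) and 8.82 (7.2 to 10.7) that overlapped.

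Foxk1 was the strongest broad member and held 1 of the strongest single windows. Foxk1 and Foxk2 repress genes of autophagy and take part in glucose metabolism. Foxk1 had 1707 reads over 80 windows in M1 cells, a level of 21.3 (20.3 to 22.4), and 1107 reads in M1+IL-6 cells, a level of 14.4 (13.5 to 15.2). The ratio was 0.673 (0.624 to 0.727). All of this decrease lay in the 5′ stretch of 75 windows, which holds 2 of its start sites and had 1642 reads in M1 cells and 1038 in M1+IL-6 cells. The last 5 windows had 65 and 69 reads. In M1 cells at least 1 window of the 5′ stretch held 96 reads or more, and in M1+IL-6 cells no window there could hold more than 92.4 scaled reads.

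Foxk2 had 937 and 852 reads (levels 12.7 and 12) with a ratio of 0.944 (0.859 to 1.04). Foxp4 had 560 and 489 reads and a ratio of 0.907 (0.801 to 1.03). Neither ratio excluded equality. Foxn3, linked to cell cycle checkpoints, was the broad member that rose beyond its counting error, from 2726 to 3196 reads over 277 windows, a ratio of 1.22 (1.16 to 1.28). Foxj2 had 227 and 243 reads and Foxj3 had 387 and 398, with ratios of 1.11 (0.924 to 1.34) and 1.07 (0.926 to 1.23).

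Foxn2 had a low level, 4.47 (3.81 to 5.22) in M1 cells and 3.95 (3.32 to 4.67) in M1+IL-6 cells, but its first 2 windows stood out. They held 32 reads in M1 cells, 23 of them in 1 window, and 13 reads in M1+IL-6 cells. The ratio there was 0.422 (0.203 to 0.826), against 0.883 (0.698 to 1.12) for the whole span. Sox12, a SoxC paralog of Sox4 and Sox11, had 11 reads in M1 cells and 13 in M1+IL-6 cells. In M1 cells its 3 windows held 7, 3 and 1 reads. These windows include the promoter with 47 CpG printed above.

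**Figure D2:**
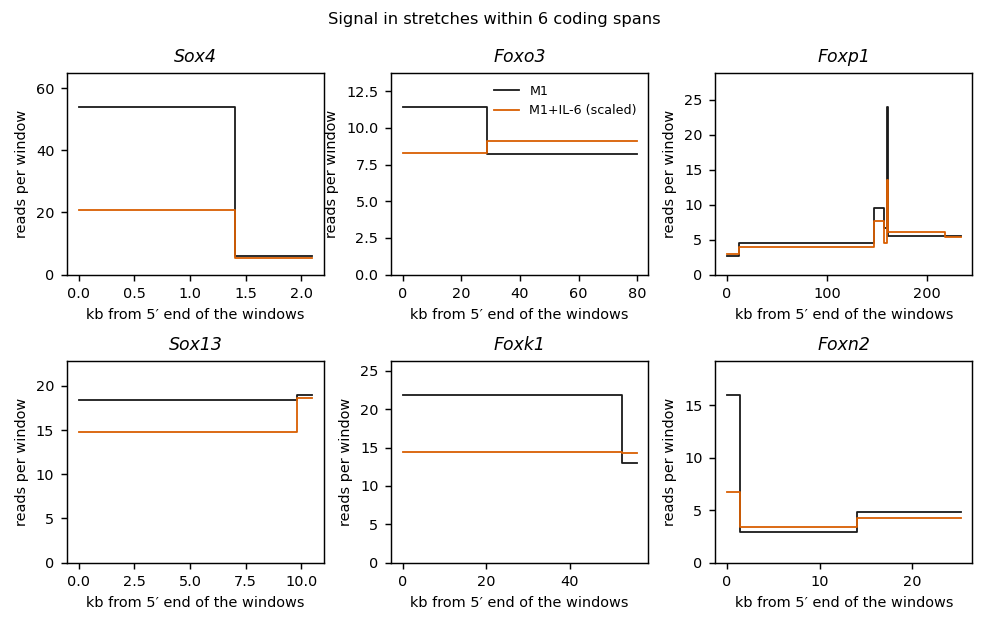
Mean signal in reads per 700-bp window along 6 coding spans, against the distance in kb from the 5′ end of the windows, in M1 cells (black) and M1+IL-6 cells (orange, scaled). Each step is 1 stretch between transcript ends. Sox4, Foxo3, Foxk1 and Foxn2 were lower in M1+IL-6 cells in their 5′ stretch, with ratios of 0.385, 0.726, 0.656 and 0.422. Sox13 had 0.804 (0.665 to 0.971) there and Foxp1 1.13 (0.737 to 1.75). Among members with stretches that are not drawn, this ratio was below 1 in Foxr1 (0.378) and Foxk2 (0.972). It was above 1 in the others, such as Foxj3 (1.16) and Sox5 (1.22).

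Foxr1, left unplaced, and the developmental members Foxd4, Sox10, Foxj1 and Foxn4 had the highest M1 levels outside the blood and broad classes. Foxr1 had 348 reads over 11 windows in M1 cells, a level of 31.6 (28.4 to 35.1), and 137 reads in M1+IL-6 cells, a level of 12.9 (10.9 to 15.3). Its 5′ stretch of 9 windows, which holds its start site, had 324 of the M1 reads, with at least 165 in 1 window. Foxd4, a factor of the early neural plate, had 71 reads over 3 windows in M1 cells, a level of 23.7 (18.5 to 29.9), and 32 in M1+IL-6 cells, a level of 11.1 (7.57 to 15.6). Both genes had intervals that did not overlap between the libraries, with ratios of 0.409 (0.333 to 0.499) and 0.468 (0.298 to 0.72).

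Sox10, a neural crest factor, had 230 reads over 12 windows in M1 cells (level 19.2, 16.8 to 21.8) and 247 in M1+IL-6 cells (level 21.4, 18.8 to 24.2). Its intervals overlapped, and it had the highest level of all members in M1+IL-6 cells. Foxj1, the regulator of motile cilia, had 78 and 79 reads (levels 15.6 and 16.4). Foxn4, a factor of retinal precursors, had 400 and 350 reads (levels 14.8 and 13.5). Neither gene differed between the libraries beyond its interval.

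The 5 lowest of these members were Sox3, Sox30, Foxp2, Foxd1 and Foxe1. Sox3, a factor of neural progenitors, had 2 reads in M1 cells and 8 in M1+IL-6 cells over 3 windows. Foxd1, of the kidney stroma, had 7 and 16 reads, and Foxe1, of the thyroid, had 5 and 9. These 3 had at most 21 reads in both libraries, which also held for Foxc1, Foxd2, Foxd3, Foxe3, Foxq1, Foxr2 and Sox12. For these 10 genes no fold class was given. Sox30, of male germ cells, had 110 reads over 54 windows in M1 cells, 2.04 per window (1.67 to 2.46), and 138 in M1+IL-6 cells. No member was without reads.

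From whole spans, a strong window was certain in 2 of the 9 blood, 3 of the 8 broad and 4 of the 41 developmental members in M1 cells. The mean and SD over the windows set bounds on the strongest window of a span, and a window was called strong above 21 reads, the number used in this series for a hypersensitive site. Of all 61 members, 10 had to hold such a window in M1 cells, against 35.6% of all genes. Adding the stretches between transcript ends, an alternative chosen after seeing the data, raised this to 13, against 38.5% of all genes, with 4 blood, 4 broad and 4 developmental members. They included Sox4, Sox13, Foxo3 and Foxp1 in the blood class, Foxk1, Foxk2, Foxp4 and Foxn2 in the broad class, Foxd4, Sox10 and Foxn4 in the developmental class, and Foxr1. From the whole spans alone, 35 members could hold no strong window and 16 were undecided.

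The classes differed in the length of their spans. Among members with at least 6 windows, a strong window in M1 cells was certain from whole spans in 1 of 8 blood, 3 of 7 broad and 2 of 12 developmental members, against 40.9% of all genes of that length. With stretches the counts were 3 of 8, 4 of 7 and 2 of 12, against 45%, so at this length the blood count exceeded the developmental share only with stretches. Among members with at most 5 windows a strong window was certain in 1 of 1 blood, 0 of 1 broad and 2 of 29 developmental members under both settings, against 22.4% of all such genes from whole spans and 22.7% with stretches. No test was made. In M1+IL-6 cells a window above 21 scaled reads was certain from the whole span in 6 members, against 19% of all genes. Of these, 5 were among the 32 members with at most 5 windows, against 20.1% of all such genes, and 1 among the 29 longer members, against 18.5%. They included Sox4, Sox10, Sox8, Foxb1 and Sox14, of which the last 3 were named after their values were seen.

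Several single-exon developmental genes had windows that could be read exactly, some of them even and some not. In M1 cells, in order of size, the windows of Sox11 held 13 and 12 reads. Those of Foxc2 held 15, 15 and 7, and those of Foxd1 held 5, 1 and 1.

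**Figure D3:**
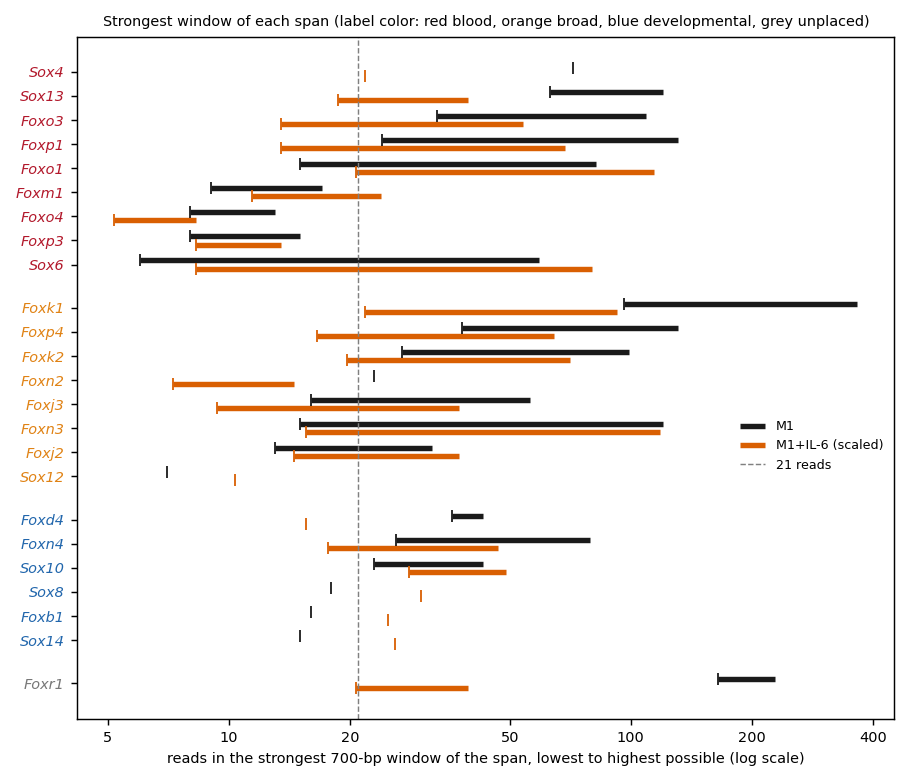
Lowest to highest number of reads that the strongest 700-bp window of a span can hold, on a log scale, in M1 cells (black) and M1+IL-6 cells (orange, scaled), with stretches used where present. All blood and broad members and other members certain to pass 21 reads (dashed line) in either library from the whole span are shown, and a tick without a bar is an exact value. In M1 cells Foxr1 (at least 165) and Foxk1 (at least 96) lie highest.

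After IL-6 most developmental members had higher scaled signal, while blood and broad members were divided between both directions. Of the 51 members that passed 21 reads in at least 1 library, 34 were higher and 17 lower in M1+IL-6 cells, against 51.7% and 48.3% of 18473 such genes. A gene could pass through 1 library alone, so for genes of few reads the direction is not independent of this filter. The counts of higher and lower were 4 and 5 in the blood class, 3 and 4 in the broad class, and 26 and 7 in the developmental class. The median log2 ratio was -0.09 for blood, -0.08 for broad and 0.31 for developmental members, and 0.03 for all genes. The share of higher genes varied with the M1 level. At 2 to 4 reads per window 3 of 3 members were higher, against 86.9% of all genes. At 4 to 8 these values were 14 of 17 and 74.4%, at 8 to 16 they were 16 of 25 and 48.6%, and at 16 to 32, 1 of 5 and 16.3%. These ranges were not split by class. Members with at most 5 windows numbered 16 higher and 6 lower, against 47.1% and 52.9% of all such genes, and longer members numbered 18 higher and 11 lower, against 52.5% and 47.5%. Of the developmental members, 16 of 18 whose own start site lay in the windows were higher, and 10 of 15 of the others. All genes were not split in this way, so these counts have no background share and no meaning was drawn from them. Hox genes had a median of 0.11, with 13 higher and 7 lower. The interval of the ratio was wholly above 1 in 13 members, of which 9 were developmental, and wholly below 1 in 5, against 29% and 34.4% of all genes. The 5 were Sox4, Sox13, Foxk1, Foxd4 and Foxr1. These shares differed with span length. Of the 22 members with at most 5 windows, 4 were above 1 and 2 below, against 11.8% and 35.5% of all such genes. Of the 29 longer members, 9 were above 1 and 3 below, against 32.4% and 34.1%. Each of these directions rests on the authors' scaling between the libraries. With the scaling set on single strong windows, the log2 ratios of all genes shifted by 1.83 and all 61 members became higher.

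At least 2-fold lower were 3 of the 51 members, against 13.4% of all genes. They were Foxr1 with a log2 ratio of -1.29, Sox4 with -1.28 and Foxd4 with -1.08. With 5 reads added to each library 2 were (Foxd4 became -0.99), and with the shortest transcripts 4 were, including Foxn2 with -1.22. The next largest falls were Sox11 with -0.76 (25 and 14 reads) and Foxc2, of lymphatic vessels, with -0.68 (37 and 22 reads), and the intervals of both ratios included 1. Sox4 and Sox11, both SoxC genes, thus had ratios below 1, while Sox12 had too few reads to place. Among genes with at most 5 windows, 29.3% were at least 2-fold lower, and among longer genes 10.3%.

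At least 2-fold higher were also 3 of the 51 members, against 1.69% of all genes. They were Foxi3 with a log2 ratio of 1.21, Sox21 with 1.15 and Foxi2 with 1.12. Foxi3, a factor of the ear and of skin appendages, had 28 reads over 7 windows in M1 cells and 63 in M1+IL-6 cells, a ratio of 2.34 (1.47 to 3.79). Sox21, a neural factor, had 17 and 37 reads over 4 windows, a ratio of 2.26 (1.24 to 4.28), but with its shortest listed transcript the log2 ratio was 0.28. Foxi2 had 16 and 34 reads over 3 windows, a ratio of 2.21 (1.18 to 4.28), and in M1 cells all 16 reads were in 1 window. All 3 genes had lower levels than the all-gene median in M1 cells (4.00, 4.25 and 5.33) and were above it in M1+IL-6 cells (9.34, 9.60 and 11.8). Sox21 and Foxi2 passed the filter on reads only through the IL-6 library, in which they were higher. Their place in this count thus depends in part on the filter.

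The third FoxI gene was also among the 5 largest rises. Foxi1, which acts in the inner ear and in acid-secreting kidney cells, had 29 and 48 reads and a ratio of 1.72 (1.06 to 2.83), with a log2 ratio of 0.77. The fifth was Sox14, a factor of interneurons, with 22 and 34 reads and a log2 ratio of 0.67, although its ratio of 1.6 had an interval (0.912 to 2.88) that included 1. The rises rested on few reads. With more than 50 reads required, or with 5 reads added to each library, 1 member was at least 2-fold higher. Among genes with at most 5 windows, 6.19% were at least 2-fold higher, and among longer genes 0.81%.

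**Figure D4:**
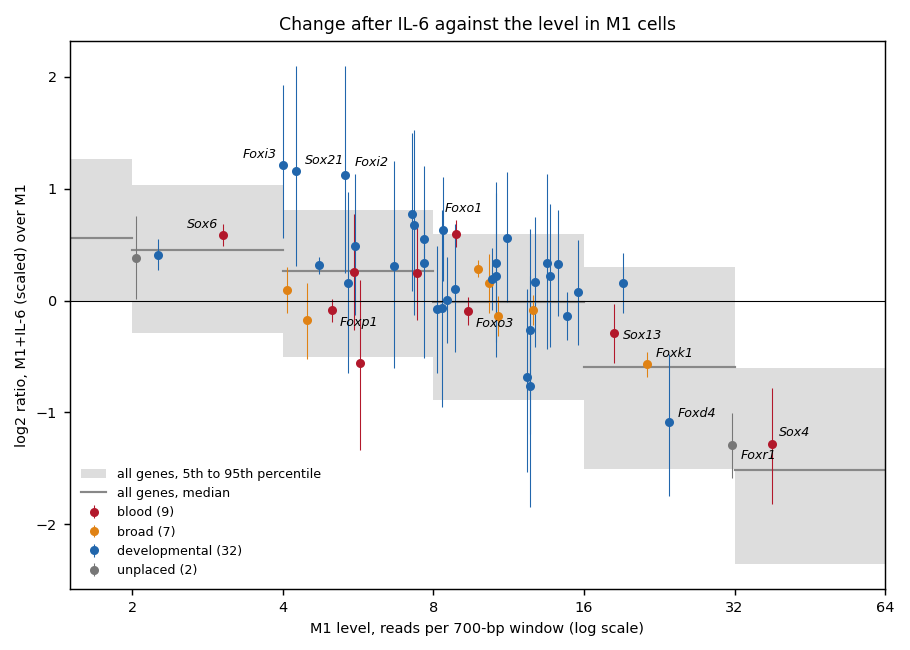
Log2 ratio of M1+IL-6 (scaled) over M1 against the M1 level in reads per 700-bp window (log scale) for members that passed 21 reads in at least 1 library, with 95% Clopper-Pearson intervals. Grey bands and lines give the 5th to 95th percentile and the median of all genes in the same range of M1 level. Both members and all genes fall from left to right, and most members lie within the bands.

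The ratios of the members followed their M1 level, as did those of all genes. Spearman's rho between log2 ratio and M1 level was -0.51 over the 51 members and -0.70 over all genes, and both axes share the M1 reads. In the 2 highest ranges of M1 level, above 16 reads per window, the median log2 ratio of all genes was -0.59 and -1.51, and none of the 6 members there left the 5th to 95th percentile range. The values of Sox4, Foxr1 and Foxd4 were thus within those of genes with a like level. In the range from 4 to 8 reads per window, where the median of all genes was 0.27, Foxi2, Foxi3 and Sox21 lay above the 95th percentile (0.81) and Foxo4 lay below the 5th (-0.50). In the range from 8 to 16, where the median was -0.01, Foxo1 and Sox7 were among those above the 95th percentile (0.597757). Foxo1, with 0.597983, was practically at this limit. Both genes lay near the low end of the range, with M1 levels of 8.87 and 8.375. Neither passed the 0.81 of the range from 4 to 8, so their place outside depends on the edges of the ranges. Sox7, a vascular factor named after its values were seen, had 67 and 100 reads and a ratio of 1.55 (1.13 to 2.14). The part of the M1 level in these ratios was not tested.

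Of 16 genes that regulate FoxO proteins, among them the Akt kinases and the 14-3-3 proteins, 12 were lower and 4 higher, against 48.3% lower among all genes, with a median log2 ratio of -0.16. The interval of the ratio was below 1 in 7 of the 16, and none changed 2-fold in either direction. Of 18 genes commonly listed as FoxO targets, 14 were lower and 4 higher, against the same 48.3%, with a median of -0.43, and the interval was below 1 in 12. At least 2-fold lower were 6 of the 18, against the 13.4% of all genes given above, and these targets also began higher, with a median M1 level of 12.6. The 6 were Gadd45a (-2.45), a stress and growth arrest gene, Sod2 (-1.57), a mitochondrial antioxidant enzyme, the cell cycle inhibitor Cdkn1b (-1.28), the cell death gene Pmaip1 (-1.26), Trib1 (-1.05) and the cyclin G2 gene Ccng2 (-1.02). None of the 18 was at least 2-fold higher. Gadd45a, Trib1 and Cdkn1b had M1 levels above 32 (125, 63.9 and 46.3), where the median log2 ratio of all genes was -1.51. Sod2 had 26.2, in a range with a median of -0.59. Pmaip1 (11.4) and Ccng2 (14.6) lay in the range from 8 to 16, with a median of -0.01. Trib1 and Cdkn1b were within the 5th to 95th percentile of genes of like level. Gadd45a, Sod2, Pmaip1 and Ccng2 were below it. The FoxO genes themselves were divided, with ratios of 1.51 for Foxo1 and 1.47 for Foxo6, 0.937 for Foxo3 and 0.675 for Foxo4. The intervals of Foxo3 and Foxo4 included 1. No relation between the FoxO genes and these genes was tested.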

How the data were processed

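DNase I hypersensitivity was measured in untreated and in IL-6-treated M1 cells, with 1 library for each. The authors removed adaptors and poor bases, used BWA (version not given in the sources used here) for alignment to NCBIM37 and deposited signal values, the mean and SD over 700-bp windows for the coding span of each transcript. The deposited number of windows per span was used as given. Tiling each chromosome from its first base gave the listed number in 100% of 55432 rows, and 99.9% of the spans equaled those of GENCODE M1.

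Reads were recovered as mean times number of windows, divided by 1 in M1 and by 1.03816 in M1+IL-6, a factor that the methods do not name. All products lay within 0.05 of a whole number. Where a gene had several transcripts, the one that touched most windows stood for it. The log2 ratio added 0.5 reads to each library, and a 2-fold class was given where either library had more than 21 reads. For spans or stretches of at most 5 windows, bounds on the strongest window came from every whole-number filling that the mean and SD allow. For longer ones, and for some short ones with many reads, the bounds came from formulas of the mean and SD. These steps were tested on simulated data.

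The total depth of the libraries is unknown, and reads are not independent molecules. Mean, SD and bounds cannot place a peak within a stretch. The members, classes and lists were chosen with earlier results of these data known. Genes named were all blood and broad members, the 5 highest and 5 lowest other members in M1, the 5 largest rises and falls, members certain to hold a strong window in M1, and the paralogs Foxo6, Foxp2 and Sox11. Some others, such as Sox5, were named after their values were seen. Of the genes in the lists, 2 members and the progenitor marker Spi1 were not analyzed here. The values of 1 member named by this rule are not reported here, though it is kept in the counts. Alternatives covered the scaling, the reads added, the filter, the fold, the transcript, the class and the threshold. The software was Python 3.11.15 with the packages numpy 2.4.6, scipy 1.17.1, pandas 2.3.3 and matplotlib 3.10.9.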

Additional observations from a re-analysis of the deposited data

How the results depend on the processing

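Directions between the libraries depended on the scaling. With no scaling, with the total over coding spans or with the median of ratios over genes, the counts of members past 2-fold and the medians of the classes stayed close to those given, as did the ratios of all 51 members. Scaling on single windows gave 0 members at least 2-fold lower, 57 at least 2-fold higher, and median log2 ratios of 1.74 for blood and 2.12 for developmental members. All 17 members that had been lower then became higher, among them the 3 that had been at least 2-fold lower, Foxd4 (0.73), Foxr1 (0.53) and Sox4 (0.54), since this scaling shifts every log2 ratio by nearly the same amount.

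The members at least 2-fold higher numbered 1 with 5 reads added, 5 with no filter, 1 with more than 50 reads and 8 at a fold of 1.5, at which 5 were lower. With the shortest transcript of each gene the blood median was -0.31, 8 of the 51 ratios moved beyond their interval, and Foxk1 became 0.14 and Sox21 0.28 on the log2 scale. The 2 blood spans of at most 10 windows, Sox4 (38.0) and Foxo4 (5.71), had a median M1 level of 21.9. A strong window was certain in 6 members at 30 reads and in 4 at 50 reads. The alternative that used stretches was chosen after seeing the data. No paired analysis was possible because there was only 1 library of M1 and 1 of M1+IL-6. With these depths, changes in members of few reads could not be detected unless they were large.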
